A study of Homo sapiens with 6 samples.

Results

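The genes described here encode the proteins of the cytosolic ribosome and were chosen by their names: RPL or RPS followed by digits and at most 1 letter out of A, X or L, together with RPLP0, RPLP1, RPLP2, RPSA and FAU. The rule found 82 of the 26485 gene rows of the count table, 49 with large subunit names and 33 with small subunit names. They were compared in H9 cells, an established human T lymphoma line labelled as cutaneous, given PA4 at 1 µM for 24 h (3 libraries) or the vehicle DMSO for the same time (control, 3 libraries). PA4 is a code name, and the series is titled for a derivative of berbamine. All 6 libraries are of polyadenylated RNA from the same line, with no genetic change in either group.

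Ribosomal proteins assemble in the nucleolus with ribosomal RNA into a small subunit, which reads the mRNA, and a large subunit, which joins amino acids. Cells make them in matched amounts, and the mRNAs carry a 5′ terminal oligopyrimidine tract (5′ TOP), a C at the first base followed by a run of C and T, through which the kinase mTORC1 and the cap-binding protein LARP1 control their translation and stability. Proliferating lymphoid cells spend a large part of their mRNA on them, and some free ribosomal proteins bind MDM2 when ribosome assembly is disturbed.

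The tract can be read at the annotated transcription starts in RefSeq (GRCh38.p14). A pyrimidine start was counted where the base at the start was C and the next 4 bases were each C or T, read on the sense strand at that 1 position only. Where a gene had several listed starts, the one with the longest run was taken. Of 82 members, 65 matched the table of starts, and 47 of these (72.3%) had a pyrimidine start, against 7.16% of the 8877 other tested genes and 5.14% of all 27305 genes of that table. The share was 71.8% of 39 large subunit members and 73.1% of 26 small subunit members. The members shown first are among the most abundant or carry the largest fold changes, and RPS6 is a target of the mTORC1 pathway. Each is shown with 15 bases before and 15 from the start and the pyrimidine run in capitals. The RPL39 run went on to the end of the 30-base window, and that of RPL41, the member with the lowest p, was the shortest shown.
RPLP0 (chr12:120201097-120201126, minus strand): gcgcgggcgcgaggcCCTTCTCTCgccagg
RPS3 (chr11:75399503-75399532, plus strand): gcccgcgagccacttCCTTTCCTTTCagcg
RPL39 (chrX:119791616-119791645, minus strand): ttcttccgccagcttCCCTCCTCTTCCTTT
RPL36A (chrX:101390996-101391025, plus strand): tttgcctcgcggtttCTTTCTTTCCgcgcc
RPL41 (chr12:56116618-56116647, plus strand): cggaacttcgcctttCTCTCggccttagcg
RPS6 (chr9:19380222-19380251, minus strand): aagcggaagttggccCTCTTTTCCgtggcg

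Members without a pyrimidine start at the annotated base numbered 18 of 65. They included RPL4, the member with the most counts, RPL19, and both of the small subunit members with the lowest fold changes. In RPL4, RPL19 and RPS28 pyrimidine-rich letters stood elsewhere in the window, while RPS27L had few.
RPL4 (chr15:66504841-66504870, minus strand): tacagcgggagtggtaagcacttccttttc
RPL19 (chr17:39200268-39200297, plus strand): tgggctctccccttcgcagataatgggagg
RPS28 (chr19:8321481-8321510, plus strand): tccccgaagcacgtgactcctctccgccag
RPS27L (chr15:63157463-63157492, minus strand): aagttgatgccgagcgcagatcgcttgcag

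Libraries held 18282212 to 22875191 counts. Of 12 T cell markers, 8 had over 100 counts in every library (CD3D, CD3E, CD3G, CD247, CD5, LCK, ZAP70 and CCR4), but CD2 had 0 to 1 and CD4 had 6 to 12. B cell markers MS4A1 and PAX5 had at most 7 counts, although CD79A had 178 to 260 and CD79B had 151 to 227. Control replicates 1 and 3 stood apart from each other by the base composition of their transcripts, as described with the member values below. Counts and shares of members that moved with them are given with and without them. Whether the replicates were separate cultures is not stated in the labels, so a p-value covers the spread among these libraries only, part or all of which may be technical.

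The part of the mRNA pool taken by cytosolic ribosomal protein genes differed between PA4 and control by less than the spread between control libraries. The 82 members held 5.54%, 5.51% and 5.50% of the counts in PA4 libraries 1 to 3, and 5.63%, 5.58% and 5.41% in control libraries 1 to 3. The PA4 values lay inside the control range, and the mean share was 5.52% ± 0.024 in PA4 libraries and 5.54% ± 0.12 in control libraries (SD, n = 3 each), a ratio of 0.996. Without control replicate 3 all PA4 shares lay below the other control shares and the difference was -0.090 percentage points, against -0.024 with all libraries and 0.022 without control replicate 1. The sign of this small difference thus turned with 1 library. The widest 95% binomial interval (Wilson) of a library's share, in PA4 replicate 3, spanned 5.49% to 5.51% and covers counting error only. Divided by gene length, members made 16.2% ± 0.037 of the length-scaled total (TPM) in PA4 libraries and 16.2% ± 0.20 in control libraries. These are shares of sequenced mRNA, so a change in the total RNA per cell, or fewer cells, would not be seen and cannot be told apart.

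The proportion of the subunits also differed by less than that spread. Large subunit members held 3.42% ± 0.017 of counts in PA4 libraries and 3.44% ± 0.079 in control libraries, and small subunit members held 2.10% ± 0.0073 in PA4 libraries and 2.10% ± 0.038 in control libraries (SD, n = 3 each). The ratio of large to small subunit counts was 1.64, 1.64 and 1.63 in PA4 libraries and 1.65, 1.63 and 1.63 in control libraries, and the groups overlapped. The difference in this ratio was -0.0021 with all libraries, 0.0044 without control replicate 1 and -0.0057 without control replicate 3. The share of large subunit members differed by -0.017, 0.017 and -0.060 percentage points in the same order, and that of small subunit members by -0.0074, 0.0048 and -0.029. The elongation factor EEF1A1, a 5′ TOP mRNA outside the rule, held 0.530% of counts with PA4 and 0.527% in control. The 77 mitochondrial ribosomal protein genes together held 0.564% with PA4 and 0.567% in control.

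**Figure D1:**
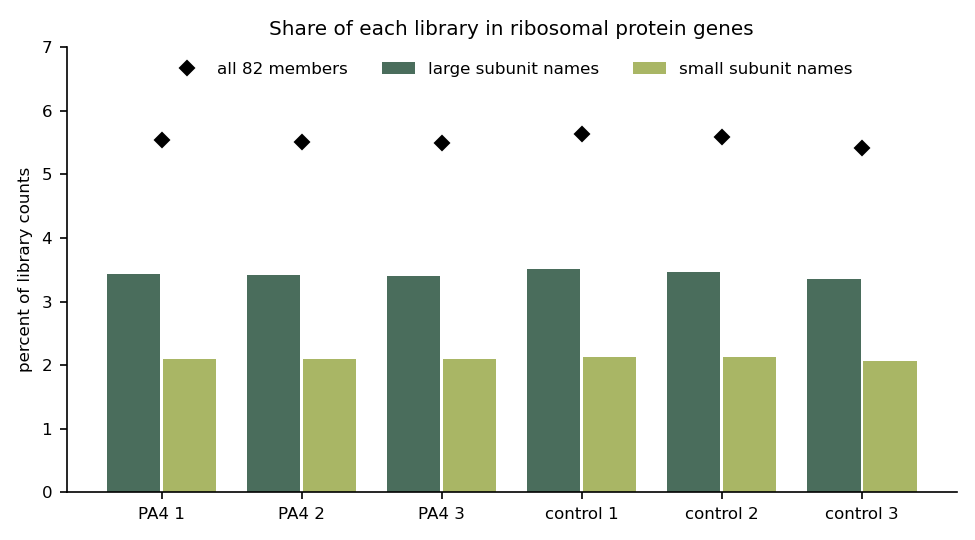
Percent of each library's counts in ribosomal protein genes, for all 82 members (diamonds) and for large and small subunit names (bars), in 3 PA4 and 3 control libraries of H9 cells. The PA4 diamonds lie between 5.50% and 5.54%, inside the control range of 5.41% to 5.63%.

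No single member was called. Of 82 members, 80 passed the low-count filter, and in edgeR's quasi-likelihood test 0 of 80 were called at an adjusted p under 0.05, against 28 of all 12107 tested genes (0.231%), of which 26 were higher with PA4 (0.215%) and 2 lower (0.0165%). At an unadjusted p under 0.05 there were again 0 of 80 members, against 641 genes (5.29%). DESeq2 and limma-voom also called 0 members and had 0 at an unadjusted p under 0.05. The median log2 fold change, PA4 over control, was -0.00081 over the 80 members, -0.0018 over 47 large subunit and 0.0014 over 33 small subunit members, and -0.0040 over all tested genes. It was above 0 in 38 of 80 members (47.5%) and in 47.6% of all tested genes. Single members ran from -0.090 for RPS27L to 0.042 for RPS3, and the median standard error was 0.032.

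These intervals were narrow. For 70 of the 80 members (87.5%) both ends of the 95% interval were under 1.1-fold from no difference, against 24.4% of all tested genes and 76.3% of tested genes averaging at least 100 CPM (counts scaled to library size). The widest interval was that of RPS10, at about 4 CPM, from 0.835 to 1.26-fold. Abundance goes with narrow intervals in all genes, so these shares describe precision and are not particular to ribosomal proteins.

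**Figure D2:**
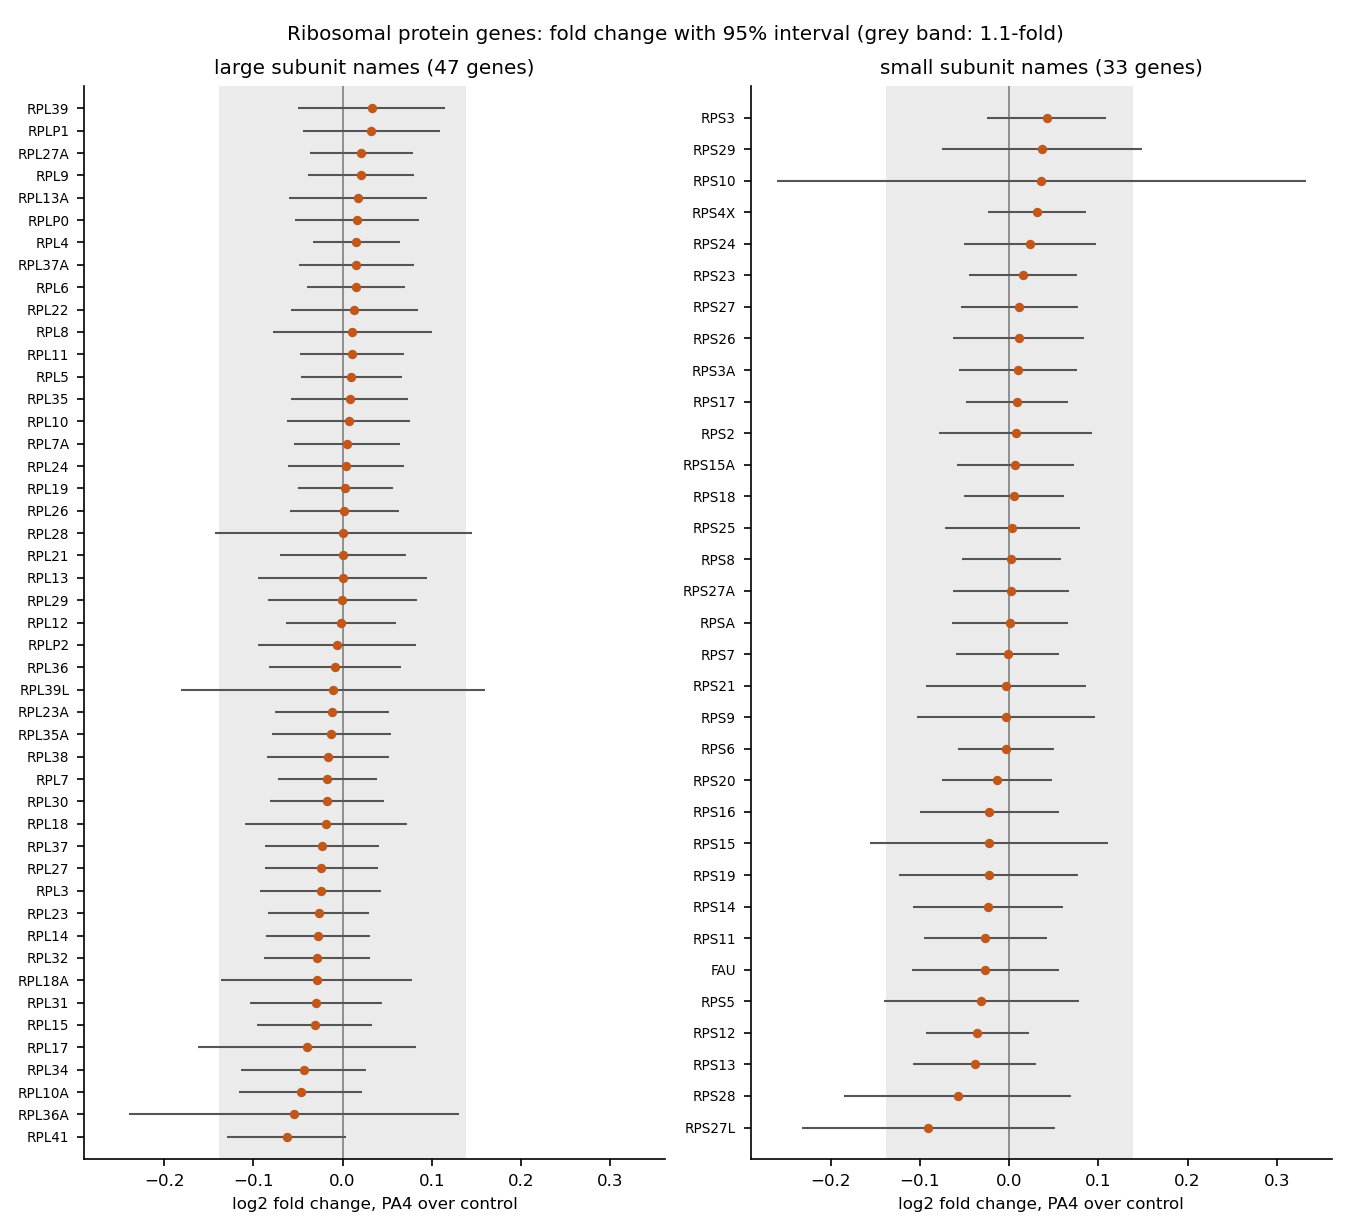
Log2 fold change, PA4 over control, of the 80 members that passed the low-count filter (points), with 95% intervals (lines), by subunit and sorted by value; the grey band marks 1.1-fold. Points run from -0.090 (RPS27L) to 0.042 (RPS3), every interval crosses 0, and that of RPS10 is the widest.

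In 4 of 80 members (5%) the 3 PA4 libraries did not overlap the 3 control libraries in CPM, against 11.2% of all tested genes. PA4 libraries were all below control in 3 members, against 5.31% of tested genes, and all above control in 1, against 5.91%. RPL41, which encodes a very short peptide at the subunit interface (chr12:56116633-56117967), had 304, 304 and 300 CPM in PA4 libraries, against 317, 312 and 318 CPM in control libraries. All PA4 values lay below all control values, with a log2 fold change of -0.063 ± 0.031 (SE) and an adjusted p of 0.961, the lowest among members. RPL32 (chr3:12834485-12841582) had 681, 675 and 686 CPM with PA4, against 706, 690 and 687 CPM in control. RPL23, a large subunit protein that can bind MDM2 (chr17:38847860-38853721), had 863, 865 and 884 CPM with PA4, against 889, 887 and 886 CPM in control. RPS4X, a small subunit protein encoded on the X chromosome (chrX:72272042-72277248), was the 1 member with all PA4 libraries above control, at 1445, 1413 and 1404 CPM with PA4, against 1376, 1401 and 1395 CPM in control. RPL32, RPL23 and RPS4X were chosen with their values known, and their log2 fold changes were -0.028 ± 0.028, -0.027 ± 0.027 and 0.031 ± 0.026 (SE).

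With 1 library left out, non-overlap is easier to reach by construction. All PA4 libraries then lay below control in 5, 2 and 9 of 80 members without PA4 replicates 1, 2 and 3 (8.7%, 8.53% and 9.1% of all tested genes). They lay below control in 8, 3 and 21 of 80 members without control replicates 1, 2 and 3 (13.4%, 9.21% and 12.2% of all tested genes). They lay above control in 2, 4 and 2 of 80 members without PA4 replicates 1, 2 and 3 (9.55%, 9.49% and 9.92% of all tested genes). They lay above control in 10, 5 and 3 of 80 members without control replicates 1, 2 and 3 (13%, 9.07% and 13.1% of all tested genes). The number of members that stood apart thus moved with single libraries, while RPL41 had a log2 fold change between -0.070 and -0.055 whichever library was left out.

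**Figure D3:**
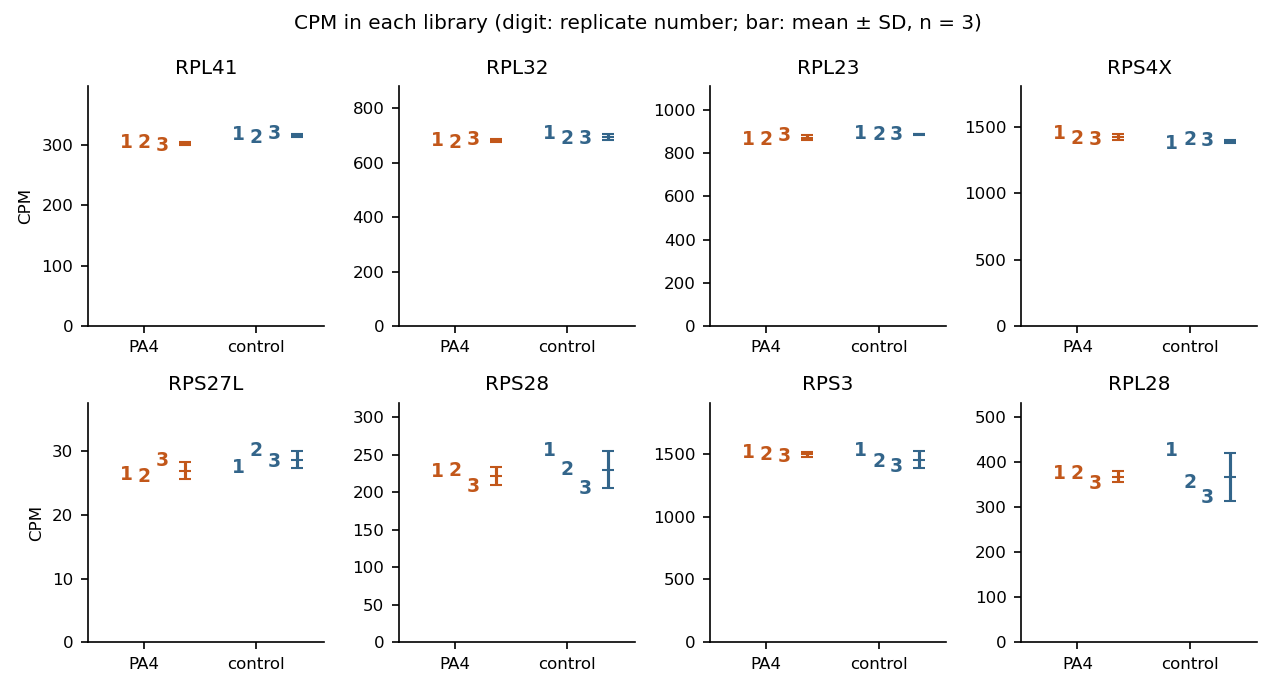
CPM in each library for the 4 members whose groups did not overlap, 3 members with large fold changes and RPL28. Digits give the replicate number, bars are mean ± SD, n = 3, and each axis starts at 0. RPL28 had the highest coefficient of variation (SD over mean) in control libraries among the tested members. RPL41 shows PA4 libraries at 300 to 304 CPM below control libraries at 312 to 318 CPM, whereas RPL28 control libraries run from 321 to 426 CPM around the PA4 values.

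Among large subunit proteins, the stalk, which recruits elongation factors, is built of RPLP0 with RPLP1 and RPLP2. RPLP0 had 1732, 1733 and 1661 CPM in PA4 libraries, against 1769, 1694 and 1605 CPM in control libraries. RPLP1 averaged 819 ± 12 CPM with PA4 and 801 ± 46 CPM in control, and RPLP2 averaged 300 ± 5.1 CPM with PA4 and 301 ± 20 CPM in control (SD, n = 3 each). PA4 values lay within the control range for all 3 stalk genes, and their log2 fold changes were 0.016 ± 0.033, 0.032 ± 0.036 and -0.0066 ± 0.042 (SE). RPL5 and RPL11 form a particle with 5S ribosomal RNA that can inhibit MDM2. RPL5 averaged 1154 ± 13 CPM with PA4 and 1146 ± 20 CPM in control, and RPL11 averaged 738 ± 7.7 CPM with PA4 and 733 ± 6.9 CPM in control. Their log2 fold changes were 0.0099 ± 0.027 and 0.011 ± 0.028, and both pairs of groups overlapped.

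RPL22, which in mice is needed for the development of αβ T cells, averaged 407 ± 3.9 CPM in PA4 libraries and 403 ± 15 CPM in control libraries. RPL10A, the protein of the L1 stalk, where tRNAs leave, had 588, 574 and 563 CPM with PA4, against 590, 617 and 575 CPM in control. Its log2 fold change of -0.047 ± 0.033 (SE) left the groups overlapping. RPL39, which lines the exit tunnel, had 282, 282 and 290 CPM with PA4, against 264, 276 and 294 CPM in control. At 0.032 ± 0.039 (SE) it had the highest log2 fold change among large subunit members, with PA4 values inside the control range.

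Among small subunit proteins, RPS3, which sits at the mRNA entry site, had 1513, 1494 and 1476 CPM in PA4 libraries, against 1525, 1435 and 1394 CPM in control libraries. This highest log2 fold change of all members, 0.042 ± 0.031 (SE), had an adjusted p of 0.991, and control replicate 1 lay above every PA4 library. RPS29 had a log2 fold change of 0.037 ± 0.053 and RPS28 had -0.058 ± 0.060 (SE). RPS28 had 227, 229 and 207 CPM with PA4, against 256, 230 and 205 CPM in control, a range that held all PA4 values. RPS6, the substrate of the S6 kinases downstream of mTORC1, averaged 1115 ± 3.7 CPM with PA4 and 1118 ± 4.8 CPM in control, and its log2 fold change was -0.0039 ± 0.026.

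RPS19 and RPS26, both mutated in Diamond-Blackfan anaemia, averaged 339 ± 5.0 and 253 ± 2.6 CPM in PA4 libraries, against 344 ± 30 and 251 ± 7.4 CPM in control libraries. RPSA, also known as the laminin receptor precursor, averaged 1139 ± 24 CPM with PA4 and 1138 ± 41 CPM in control. RPS27A and FAU are made as fusions with ubiquitin or a ubiquitin-like protein. RPS27A averaged 589 ± 10 CPM with PA4 and 588 ± 16 CPM in control, and FAU averaged 312 ± 2.7 CPM with PA4 and 318 ± 18 CPM in control. In each of these 5 genes the groups overlapped.

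Paralogs with tissue-restricted or low expression that the name rule takes in stood far below their partners. RPS27L, a close paralog of RPS27, had 26.2, 26.0 and 28.4 CPM in PA4 libraries, against 27.4, 30.1 and 28.4 CPM in control libraries. That was the lowest log2 fold change of all members, -0.090 ± 0.067 (SE, adjusted p = 0.991), with overlapping groups. In TPM, RPS27L stood at 1.79% ± 0.048 of RPS27 with PA4 and at 1.92% ± 0.074 in control, and RPL39L, known mainly from testis, at 2.91% ± 0.085 of RPL39 with PA4 and 3.00% ± 0.16 in control (SD, n = 3 each). The RPS27L ratio depends on the length used: with the shortest principal transcript, RPS27L stood at 9.14 TPM beside 2953 TPM of RPS27 with PA4, and at 9.72 TPM beside 2930 TPM in control. RPL3L, a protein of heart and skeletal muscle, had 0, 0 and 0 counts in PA4 libraries and 1, 0 and 0 in control libraries. RPL10L, known from testis, had 1, 2 and 2 counts with PA4 and 0, 1 and 0 in control. Neither passed the filter, and their counts were too low for a comparison. RPL3 and RPL10, their partners, averaged 1295 ± 32 and 1190 ± 26 CPM with PA4, against 1317 ± 55 and 1184 ± 53 CPM in control.

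Replicates of the members lay closer together in the PA4 group than in the control group. The median coefficient of variation over 80 members was 1.51% in PA4 libraries and 3.39% in control libraries, where counting error alone gives 0.917% in PA4 and 0.939% in control libraries. It was over 5% in 2 members with PA4 and in 22 in control. The control SD exceeded the PA4 SD in 65 of 80 members (81.2%), against 66.8% of all tested genes and 78.1% of those averaging at least 100 CPM, so the members were near other abundant genes. RPL28, a large subunit protein chosen for its spread, had 375, 376 and 353 CPM in PA4 libraries, against 426, 355 and 321 CPM in control libraries.

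This spread went with base composition. Over the 80 members, log2 of control replicate 1 over control replicate 3 ran from -0.27 to 0.41 and rose with the GC content of the transcript, with a Spearman rho of 0.706 across genes, against 0.634 over 11438 tested genes. The rho across members was 0.595 for PA4 replicate 2 over PA4 replicate 3. For the PA4 over control log2 fold change it was -0.055. These points share libraries and are not independent, so no p is given. In log2 CPM, the 40 members above 50.3% GC exceeded the 40 below it by 0.077 in control replicate 1 and by -0.076 in control replicate 3, and the other 4 libraries lay between -0.022 and 0.016.

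**Figure D4:**
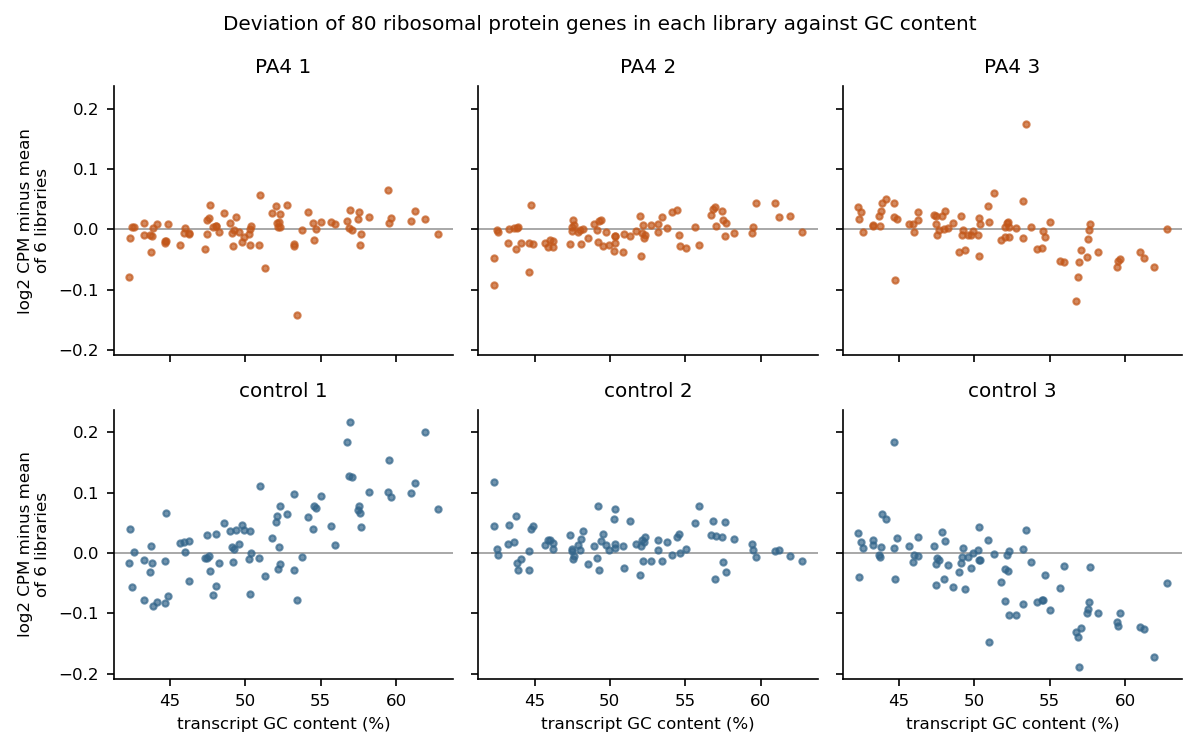
Deviation of each of the 80 members (points) from its mean log2 CPM over the 6 libraries, against the GC content of its transcript, with 1 panel per library. Points slope upward in control 1 and downward in control 3, and the slopes are shallower in the 3 PA4 libraries and control 2.

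Leaving out either of these control libraries raised the number of low p-values, among members and over all tested genes (5.29% with all libraries). Without control replicate 1, 6 of 80 members had an unadjusted p under 0.05, a lower share than the 9.96% of all tested genes. All 6 were higher with PA4, among them RPS3, RPS29 and RPLP1. The lowest adjusted p was 0.175, and the median GC content of the 6 was 54.8%. Without control replicate 3 there were 11 of 80, a higher share than the 9.49% of all tested genes. Of the 11, 10 were lower, among them FAU, RPS28, RPS19 and RPL3, and 1 was higher (RPL39). Shares by direction over all tested genes were not computed. The lowest adjusted p was 0.320 and the median GC content of the 11 was 56.7%. The part of base composition in these counts was not tested. With all 6 libraries and offsets that remove each library's trend with GC, RPL41 and RPS12 had an unadjusted p under 0.05, against 10.4% of all tested genes, and neither was called (lowest adjusted p = 0.233).

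Levels between members were compared in TPM, with the gene length given in the count table. The highest were RPL37A at 6519 ± 85 TPM in PA4 libraries and 6453 ± 204 in control libraries, RPS12 at 6334 ± 76 with PA4 and 6495 ± 152 in control, and RPL19 at 5133 ± 29 with PA4 and 5124 ± 47 in control (SD, n = 3 each). The lowest that passed the filter were RPS10 at 11.9 ± 1.3 TPM with PA4 and 11.6 ± 0.54 in control, RPL36A at 13.0 ± 0.44 with PA4 and 13.5 ± 1.5 in control, and RPL39L at 51.7 ± 2.5 with PA4 and 52.0 ± 1.7 in control. The order of the 80 members was almost the same in PA4 and control means (Spearman rho 0.999 across genes of the same libraries). Leaving out paralogs and the read-through members, 75 members spanned 54.8-fold in TPM. With the length of the shortest principal transcript they spanned 29.3-fold. RPL37A then moved to rank 70 while RPS12 and RPL19 stood first and second, so the level of RPL37A depends on the transcript length used. So does the low end, where RPS27L at 9.14 TPM with PA4 and 9.72 in control then stood lowest, and RPL36A stood at 73.9 TPM with PA4 and 76.7 in control.

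RPS10, RPL17 and RPL36A each share exons with a read-through gene, a transcript that runs on into the next gene. RPS10, a protein that is ubiquitinated on stalled ribosomes, had 3.56, 3.99 and 4.44 CPM in PA4 libraries, against 3.73, 3.90 and 4.04 CPM in control libraries, a log2 fold change of 0.036 ± 0.14 (SE). It shares 39.4% of its exon bases with RPS10-NUDT3, whose row was at 0 counts in every library. RPL36A, at 14.5, 14.0 and 14.96 CPM with PA4, against 13.9, 14.5 and 16.7 CPM in control, had a log2 fold change of -0.054 ± 0.087. It shares 333 of 3964 such exon bases (8.40%) with RPL36A-HNRNPH2, also at 0, and its shortest principal transcript has 429 bases. RPL17 averaged 40.5 ± 1.7 CPM with PA4 and 41.7 ± 1.7 CPM in control. It shares 611 of 2466 such exon bases (24.8%) with RPL17-C18orf32, which had 0 to 5 counts. The shortest principal transcript of RPL17 has 669 bases. How much of the main mRNA of each member is shared was not computed. How the authors' counting treated reads that fit both rows is not given in the sources used here, and its part in these low levels was not tested. The 31 pseudogene rows held 0.0076% of counts with PA4 and 0.0078% in control. Adding them to their parent genes again gave 0 called members.

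Fold changes were near 0 with and without the pyrimidine start. The median log2 fold change was 0.00071 over the 47 members with it and -0.023 over 17 tested members with another listed start. Over other tested genes it was -0.0050 with the start (636 genes, 0.314% called) and -0.0025 without it (8241 genes, 0.194% called). No test was made of these differences.

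Other genes of ribosome supply and control were described from lists whose tested genes were all counted, with 0 called in each. No row was matched for RACK1 of the 5′ TOP list, NOP53 of the stress sensing list, or EFL1 and MAP3K20 of the rescue list. Of 18 listed regulators of 5′ TOP translation and mTORC1, 17 were tested. The 5 cytosolic ribosomal proteins outside the name rule had a median log2 fold change of -0.036, and the highest was 0.055 ± 0.038 for RPL7L1. Of 23 other 5′ TOP genes, 1 had an unadjusted p under 0.05, and the median was 0.011. That gene was VIM, the intermediate filament vimentin, with 831, 818 and 811 CPM in PA4 libraries, against 790, 778 and 769 CPM in control libraries. Its log2 fold change was 0.075 ± 0.028 (SE), without overlap of the groups, and its adjusted p was 0.797. The elongation factors EEF1A1 and EEF2 averaged 5318 ± 75 and 3062 ± 126 CPM with PA4, against 5261 ± 42 and 3037 ± 241 CPM in control, and the helicase EIF4A2 had the lowest log2 fold change, -0.067 ± 0.034.

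Among 17 tested regulators of 5′ TOP translation and mTORC1, 0 had an unadjusted p under 0.05 and the median was 0.015. LARP1, which binds the 5′ TOP, averaged 654 ± 6.3 CPM with PA4 and 639 ± 26 CPM in control, and the translation repressor EIF4EBP2 averaged 347 ± 2.8 CPM with PA4 and 346 ± 2.4 CPM in control. The mTORC1 subunits AKT1S1 and MLST8 had the highest and lowest log2 fold changes, 0.091 ± 0.079 and -0.12 ± 0.081 (SE). Among 14 chaperones and assembly partners, 0 passed that limit and the median was -0.0043. MDN1, which removes assembly factors, and LTV1, a small subunit assembly factor, were the most abundant, at log2 fold changes of -0.0023 ± 0.041 and -0.0035 ± 0.040. The extremes were the RPL3 chaperone GRWD1 at 0.082 ± 0.065 and HEATR3, which helps import RPL5, at -0.080 ± 0.063.

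Of 8 tested genes listed under ribosome stress sensing through MDM2 and p53, 0 had an unadjusted p under 0.05 and the median was -0.012. MDM2 had 170, 168 and 185 CPM in PA4 libraries, against 159, 169 and 176 CPM in control libraries, and the groups overlapped. CDKN1A, the cell cycle inhibitor p21, averaged 1.11 ± 0.028 CPM with PA4 and 0.764 ± 0.056 CPM in control. At this low level its log2 fold change was 0.54 ± 0.25 (SE, adjusted p = 0.946), without overlap of the groups. SESN1, a stress-induced inhibitor of mTORC1 signalling, had 65.4 ± 2.8 CPM with PA4 and 66.8 ± 0.84 CPM in control.

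Of 17 tested genes of ribosome rescue, hibernation and quality control, 1 had an unadjusted p under 0.05, and the median was -0.011. It was HABP4, related to SERBP1, at 4.75 ± 0.59 CPM with PA4 and 3.82 ± 0.42 CPM in control. SERBP1, which binds idle ribosomes, averaged 1414 ± 4.8 CPM with PA4 and 1455 ± 47 CPM in control. EIF5A, which relieves stalling, averaged 966 ± 30 CPM with PA4 and 973 ± 66 CPM in control. ABCE1, which splits ribosomes, had the lowest log2 fold change, -0.054 ± 0.037. Of 77 mitochondrial ribosomal proteins, a list added after the values were seen, 2 had an unadjusted p under 0.05 and the median was -0.0033. MRPS10 had 102, 101 and 100 CPM in PA4 libraries, against 90.2, 93.2 and 93.3 CPM in control libraries, a log2 fold change of 0.13 ± 0.041 (SE, adjusted p = 0.517) without overlap. MRPS24, at 0.607 ± 0.084 CPM with PA4 and 0.313 ± 0.054 in control, had a log2 fold change of 0.94 ± 0.37, also without overlap. MRPS14 had the lowest log2 fold change, -0.11 ± 0.061, with all PA4 libraries below control. The abundant MRPL3 and MRPL18 had -0.0057 ± 0.033 and 0.013 ± 0.035.

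**Figure D5:**
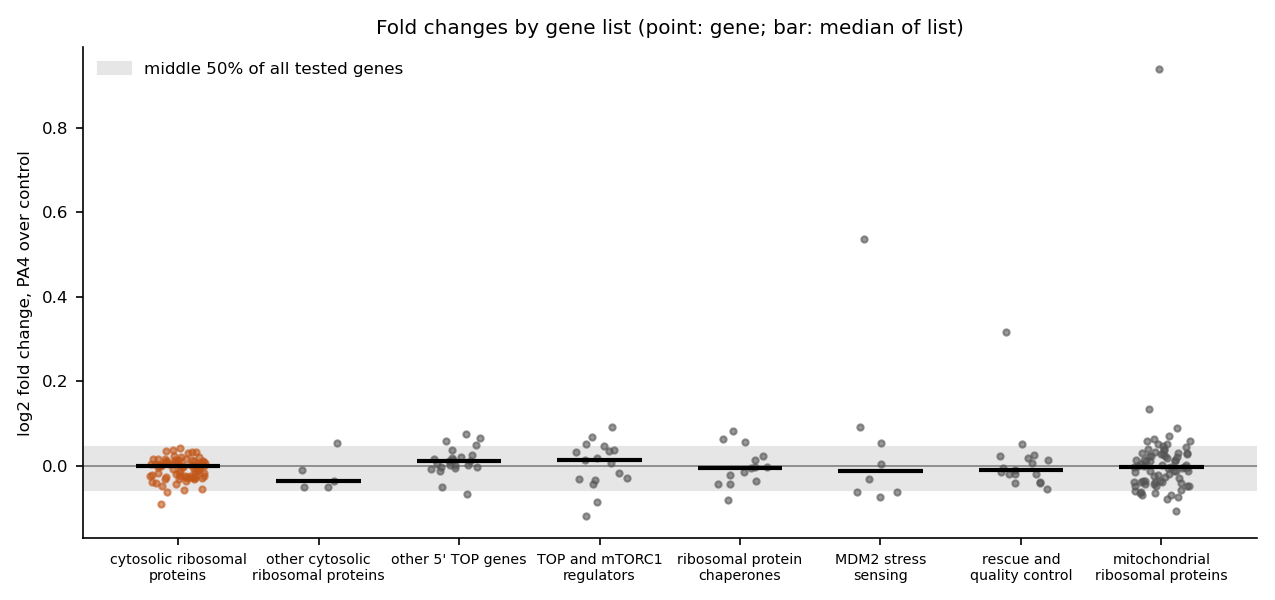
Log2 fold change, PA4 over control, of each tested gene (points) in the ribosomal protein genes and 7 lists of related genes, with the median of each list (bars) and the middle 50% of all tested genes (grey band). Medians lie between -0.036 and 0.015, and the points far above the band are the low-abundance genes CDKN1A (0.54), HABP4 (0.32) and MRPS24 (0.94).

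The 82 members lie on 21 chromosomes, with 12 on chromosome 19, the most on any. Outside the name rule, DANCR and SNHG16, both non-coding hosts of small nucleolar RNAs, had the profile over 6 libraries most like the mean log2 CPM of the 80 members, with Pearson r of 0.992 and 0.989 among 8485 genes averaging at least 10 CPM. SPINT2, CCND2 and CHD4 followed at 0.988, 0.987 and 0.984. These values describe 6 libraries in which the member mean moved little, and they carry no test.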

How the data were processed

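Polyadenylated RNA was sequenced from 6 libraries of H9 cells, 3 given PA4 and 3 given DMSO. The authors deposited raw counts per gene symbol, not normalized, with the length of each gene model. The submitters' processing notes name Trimmomatic 0.39, fastp 0.23.2, the aligner STAR 2.7.9a, featureCounts (Subread 1.6.4) and build hg38. The annotation, strand setting and treatment of reads that align to several places are not given in any source used here, so reads shared with pseudogenes, overlapping or antisense genes cannot be assigned with certainty.

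The test was edgeR 4.0.16 in R 4.3.3: filterByExpr (12107 genes kept, 99.9% of counts), TMM factors, glmQLFit and glmQLFTest, two-sided, no covariate, Benjamini-Hochberg over all tested genes, threshold 0.05. CPM use the TMM-scaled library size, and TPM the deposited gene length. The SE of a log2 fold change was derived from the F statistic. GC content came from GENCODE 29 transcripts, known for 94.5% of tested genes, and coordinates from RefSeq genes of GRCh38. The pipeline was tested on simulated data without a trend with GC. There, 38% of members changed by 1.1-fold and 97% of those changed by 1.25-fold were called. The share of false calls in a simulated set was 6.3%, as a mean over 10 sets. Depth (18282212 to 22875191 counts) sets the counting error, and the median standard error was 0.069 in log2 over all tested genes.

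Members and lists were chosen with earlier results of these data known. Named members were the 3 highest and 3 lowest in level, the 4 largest positive and 4 largest negative fold changes, the paralogs and 14 set by role. Of each list, the 2 most abundant genes and the largest rise and fall were named. Others are said to be chosen after their values. A few single genes are not reported here. Alternatives were DESeq2 1.42.0, limma-voom (limma 3.58.1), library size alone, TMM without the members, no filter, GC offsets, the replicate number as a block, pseudogene counts added to parents, and each library left out.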

Additional observations from a re-analysis of the deposited data

How the results depend on the processing

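Under 15 alternatives 0 members were called, and none of the 28 members named by rule changed its side of the threshold in any of 420 values. Same-numbered deviations from the group means over 8564 genes correlated at 0.162, -0.088 and 0.417, and not every library correlated best with its own number. These values cannot decide whether the replicate numbers pair the samples, since deviations within such small groups are not independent. With the replicate block 50 genes were called higher and 9 lower, with 0 members at an unadjusted p under 0.05. GC offsets gave 87 higher and 22 lower, with 1 mitochondrial ribosomal protein called. There 2 members had an unadjusted p under 0.05, against 10.4% of all tested genes. PA4 lay all above control in 2 members and all below in 4. GC offsets with the replicate block gave 106 and 39, with 3 members at that limit, 2 all above control and 4 all below. With these settings 1 gene each was called among the other 5′ TOP genes and the mitochondrial ribosomal proteins. Without the filter 53 and 9 genes were called, and 2 members lay all above control. With library size alone, 1 member passed an unadjusted p under 0.05, 0 lay all above and 6 all below control. Apart from the 10.4% given, shares over all tested genes were not computed for the member counts in this paragraph. Those counts thus say nothing particular to the members. The cause was not tested.

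With each library left out in turn, calls ranged from 16 to 50 higher and 1 to 24 lower (both highest without control replicate 1, and at most 4 lower without any other library), members at an unadjusted p under 0.05 from 0 to 11, members all above control from 2 to 10 and all below from 2 to 21. The median of the members ran from -0.021 (without control replicate 3) to 0.0032. List medians ran from -0.083 to -5.3e-05 for other ribosomal proteins, -9.0e-05 to 0.021 for 5′ TOP genes, -0.017 to 0.0062 for chaperones, -0.013 to 0.031 for rescue and quality control, -0.016 to 0.039 for regulators of 5′ TOP translation and mTORC1, -0.015 to 0.018 for ribosome stress sensing and -0.0047 to 0.0097 for mitochondrial ribosomal proteins, so these medians hold no stable sign, the first list apart. Differences inside a member's interval were not resolved, and the median spread between control libraries (3.39%) exceeded counting error (0.939%).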
